A study of Homo sapiens with 6 samples.

Results

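The 34 genes whose symbols begin with UBE2, out of 11048 gene symbols listed, were examined in MM1.S cells, a human multiple myeloma line. They comprised the cell-cycle E2 genes UBE2C, UBE2S and UBE2T and 31 other UBE2 genes, of which UBE2Q2P1 is a transcribed pseudogene. Members were chosen by name alone, and none was left out by a filter of this work. MM1.S cells in culture were treated for 6 h with the DMSO vehicle, with 3 µM CCF642 or with 3 µM CCF642-34, and polyA RNA was sequenced from 2 libraries per group. CCF642 inhibits protein disulfide isomerases, the enzymes that form disulfide bonds in the endoplasmic reticulum (ER), and CCF642-34 is an analogue of it made to act on PDIA1. All groups are of this single cell line, and the labels do not say whether replicate libraries came from separate cultures. The p values thus measure a spread between these libraries that may be technical. That spread was estimated mostly over all listed genes together, and little from the libraries of each gene alone. The study asked whether the changes in gene expression with the analogue can be told from those with CCF642.

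Ubiquitin is first activated by an E1 enzyme, then passed to the cysteine of an E2 ubiquitin-conjugating enzyme, and finally attached to a protein with the help of an E3 ligase. The E2 largely decides the type of chain that is built, and some E2 enzymes carry not ubiquitin but a related modifier such as NEDD8 or ISG15. Plasma cells and the myelomas derived from them secrete large amounts of antibody, and misfolded ER proteins are ubiquitinated at the ER membrane by dedicated E2 and E3 enzymes before the proteasome degrades them, which is called ER-associated degradation (ERAD).

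The 6 libraries held between 20567313 and 28459677 reads, and the listed genes took 99.9% of them. Values are in CPM, the reads on a gene scaled to a common library total. The 34 UBE2 genes were covered by 71 reads (UBE2Q2P1) to 24371 reads (UBE2J1) in a library. All 9 plasma cell markers checked were listed, with a summed level of 5179 to 5682 CPM. They moved both ways at a limma adjusted p under 0.05. With CCF642, 4 were higher and 5 lower (44.4% and 55.6%, against 31.8% and 31.3% of all listed genes). With CCF642-34, 2 were higher and 5 lower (22.2% and 55.6%, against 29.7% and 27.9%). IRF4, a factor of plasma cell identity, rose by 0.90 and 1.11 on the log2 scale with CCF642 and CCF642-34, and the surface receptor SLAMF7 by 0.37 and 0.31. TNFRSF17, the gene of the surface receptor BCMA, fell by 1.06 and 0.81. SDC1, the gene of the myeloma surface marker CD138, was at 869.8 and 851 CPM with DMSO, 239 and 252 with CCF642 and 383 and 359 with CCF642-34. None of 5 monocyte markers was listed, and CD3E was the only one of 5 T cell markers listed, at 2.09 to 3.19 CPM. Of 5 stroma and epithelium markers, 3 were listed, with a summed level of 4.09 and 3.92 CPM with DMSO, 10.5 and 11.99 with CCF642 and 4.81 and 5.22 with CCF642-34. In that list COL1A1 was at 1.09 and 1.495 CPM with DMSO and 8.99 and 10.5 with CCF642, KRT8 fell, and COL1A2 and KRT18 were not listed. The part of these genes in the results below was not tested.

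Promoter sequence was at hand for 26 of the 34 genes, as windows of 250 bases before to 50 bases after the annotated start (RefSeq, GRCh38.p14), and not for, among others, UBE2B, UBE2C, UBE2H, UBE2Q1, UBE2Q2P1, UBE2V2 and UBE2W. Both strands were searched for CCAAT, the box bound by NF-Y, for TTTGAA, the core of the element known from genes of the late cell cycle, and for TGACGTG, a core known from promoters of the unfolded protein response. CCAAT was in 34.6% of 35116 windows, TTTGAA in 15.2% and TGACGTG in 2.0%. Of the 38 windows of UBE2 genes, 10 held CCAAT, 2 held TTTGAA (UBE2F and UBE2T) and 2 held TGACGTG (UBE2J1 and UBE2O). CCAAT was in windows of UBE2D2, lower with CCF642 only, and of UBE2E1 and UBE2F, called against DMSO with neither compound. It was also in windows of genes that fell with both compounds (UBE2E3, UBE2S and UBE2T) and of genes that rose with CCF642 (UBE2D3 and UBE2Z). UBE2G2 and UBE2N also fell with both compounds, and their windows held neither CCAAT nor TTTGAA. The windows of UBE2S and UBE2T are printed as those at hand for the cell-cycle E2 genes. That of UBE2J1 is printed because its level went in opposite directions with the 2 compounds. The printed windows lie at chr19:55407739-55408038 (UBE2S), chr1:202341887-202342186 (UBE2T) and chr6:89352673-89352972 (UBE2J1), each on the minus strand. They are written from 5′ to 3′ with the motif letters, on either strand, in capitals.
UBE2S: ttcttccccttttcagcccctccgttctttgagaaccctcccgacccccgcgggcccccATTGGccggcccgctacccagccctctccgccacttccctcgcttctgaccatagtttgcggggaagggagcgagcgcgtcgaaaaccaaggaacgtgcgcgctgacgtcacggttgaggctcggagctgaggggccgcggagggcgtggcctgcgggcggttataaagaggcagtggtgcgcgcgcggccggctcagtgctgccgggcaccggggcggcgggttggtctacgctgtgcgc
UBE2T: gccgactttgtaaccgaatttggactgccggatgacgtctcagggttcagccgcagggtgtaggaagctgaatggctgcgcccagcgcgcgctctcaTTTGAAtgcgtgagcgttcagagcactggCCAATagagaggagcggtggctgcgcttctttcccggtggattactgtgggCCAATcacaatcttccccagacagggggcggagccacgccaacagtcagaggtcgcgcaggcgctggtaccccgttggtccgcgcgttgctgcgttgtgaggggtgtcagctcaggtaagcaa
UBE2J1: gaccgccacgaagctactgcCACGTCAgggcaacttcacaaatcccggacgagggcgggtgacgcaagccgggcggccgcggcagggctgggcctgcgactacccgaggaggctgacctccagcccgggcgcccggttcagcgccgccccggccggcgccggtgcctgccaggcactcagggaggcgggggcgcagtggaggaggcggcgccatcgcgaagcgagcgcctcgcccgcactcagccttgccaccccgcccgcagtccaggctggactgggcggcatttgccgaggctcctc
The UBE2S window held 1 CCAAT box, read on the opposite strand as ATTGG. The UBE2T window held 2 CCAAT boxes and 1 TTTGAA. The UBE2J1 window held 1 TGACGTG, read on the opposite strand as CACGTCA, and no CCAAT. These matches describe letters in a window and show no binding.

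Levels were compared between genes as CPM per kb of exon, using the merged exons of GENCODE release 29 (GRCh38). The order depends on this length. UBE2D3 had a higher mean CPM with DMSO than UBE2D2 (342 against 303) but longer merged exons (10.07 against 3.56 kb). UBE2J1, whose product is anchored in the ER membrane and serves ERAD, had the highest level with DMSO, 191 ± 0.640 CPM per kb (SD, n = 2). UBE2D2 followed at 85.1 ± 0.758, then UBE2H at 71.2 ± 0.191, UBE2C at 69.3 ± 0.439, UBE2M at 59.9 ± 1.42, UBE2E1 at 56.3 ± 1.42 and UBE2S at 56.1 ± 0.361 CPM per kb. UBE2E1 and UBE2S differed by less than the spread between their replicates, as did UBE2D3 (34.0 ± 0.516) and UBE2QL1 (33.7 ± 0.981). UBE2D4 (1.79 ± 0.119), UBE2Q2P1 (1.19 ± 0.227) and UBE2V1 (0.917 ± 0.145) were the lowest. The reads of UBE2V1 and UBE2F are uncertain, since readthrough genes (TMEM189-UBE2V1 and UBE2F-SCLY) share their exons, and those of UBE2Q2P1 because it resembles UBE2Q2. Exons of UBE2A, UBE2N and UBE2D4 overlap those of NKRF, NUDT4 and POLR2J4 on the opposite strand, and the sources used here do not say whether counting used strand.

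With CCF642, UBE2C, UBE2T, UBE2G2, UBE2N and UBE2D4 fell most, and UBE2QL1, UBE2B, UBE2H and UBE2O rose most. Of the 34 UBE2 genes, 10 rose and 13 fell at a limma Benjamini-Hochberg adjusted p under 0.05, which is 29.4% and 38.2%, where 31.8% of all listed genes rose and 31.3% fell (63.1% in either direction). With CCF642-34, 8 rose and 6 fell, 23.5% and 17.6% of the members, where 29.7% of all listed genes rose and 27.9% fell (57.6% in either direction). The members' shares were thus near or below those of all genes, except for the lower share with CCF642. Their median size of change, regardless of direction, was 0.233 on the log2 scale with CCF642 against 0.288 for all genes, and 0.121 with CCF642-34 against 0.246. All 3 cell-cycle genes fell with both compounds, whereas the 31 others were split, 10 higher and 10 lower with CCF642 and 8 higher and 3 lower with CCF642-34. Without TMM factors, with library size alone, the median of all genes shifted to −0.13 with CCF642 and −0.078 with CCF642-34, and the counts became 7 higher and 19 lower with CCF642 and 7 higher and 9 lower with CCF642-34. Fold changes below are on the log2(CPM + 1) scale after TMM scaling, which understates changes of genes with low levels. In bulk RNA, fewer cells of a type or cycle stage and less RNA per cell cannot be told apart.

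**Figure D1:**
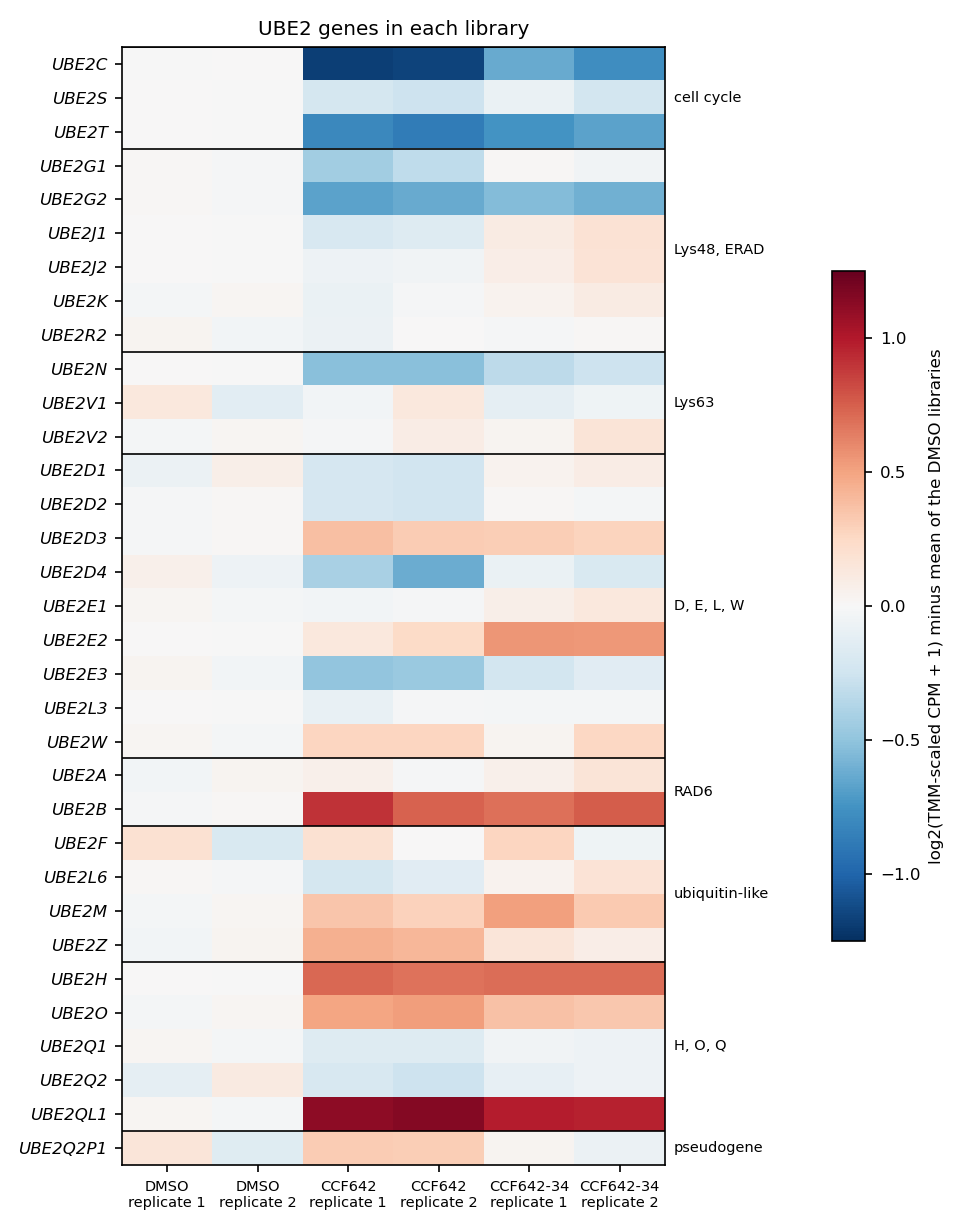
Level of 33 UBE2 genes (rows, grouped by role) in each of the 6 libraries (columns), as log2(TMM-scaled CPM + 1) minus the mean of the DMSO libraries, blue for lower and red for higher. UBE2C and UBE2T are the deepest blue rows and UBE2QL1, UBE2B and UBE2H the deepest red ones in all 4 treated libraries.

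A change of at least 2-fold with a p under 0.05, the study's criterion, with the p taken here as unadjusted, was met by 2 members with CCF642, where 6.49% of all listed genes met it, 4.5% upward and 1.99% downward. UBE2QL1 met it upward and UBE2C downward. With CCF642-34 it was met by 0 members in limma, edgeR and DESeq2 alike, where 3.87% of all listed genes met it, 2.59% upward and 1.29% downward.

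UBE2C and UBE2S work with the anaphase-promoting complex (APC/C), the E3 ligase that ends mitosis: UBE2C places the first ubiquitins and UBE2S lengthens Lys11-linked chains. UBE2C was at 89.0 and 89.8 CPM with DMSO, 35.6 and 36.0 with CCF642 and 53.7 and 48.7 with CCF642-34. The 3 groups did not overlap, with DMSO highest and CCF642 lowest. UBE2C fell by 1.16 on the log2 scale with CCF642 (SE 0.067, adjusted p = 1.84e-20) and by 0.70 with CCF642-34 (SE 0.067, adjusted p = 1.03e-12). UBE2C differed between the compounds, with a level higher by 0.46 after CCF642-34 (95% interval 0.33 to 0.60, adjusted p = 3.35e-07). UBE2S moved less. It was at 157 and 156 CPM with DMSO, 122 and 119 with CCF642 and 139 and 126 with CCF642-34. Both DMSO libraries were above all 4 treated ones. Its log2 fold change was −0.24 with CCF642 (adjusted p = 7.65e-05) and −0.16 with CCF642-34 (adjusted p = 0.00878), and the second call was lost without DMSO replicate 1 (−0.15, adjusted p = 0.0674) or without CCF642-34 replicate 2 (−0.08, adjusted p = 0.279).

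UBE2T acts with the ligase FANCL to attach a single ubiquitin to FANCD2 and FANCI in the Fanconi anaemia pathway of DNA crosslink repair. UBE2T was at 63.7 and 63.6 CPM with DMSO, 32.9 and 31.2 with CCF642 and 35.1 and 37.3 with CCF642-34. The treated libraries lay at nearly the same low level, well under DMSO. UBE2T fell by 0.84 with CCF642 (SE 0.073, adjusted p = 4.23e-14) and by 0.71 with CCF642-34 (adjusted p = 9.81e-12). The difference between the compounds, 0.13, was not called and had a 95% interval of −0.02 to 0.27. The summed level of the 3 cell-cycle genes was 309.9 and 309.2 CPM with DMSO, 191 and 186 with CCF642 and 228 and 212 with CCF642-34.

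**Figure D2:**
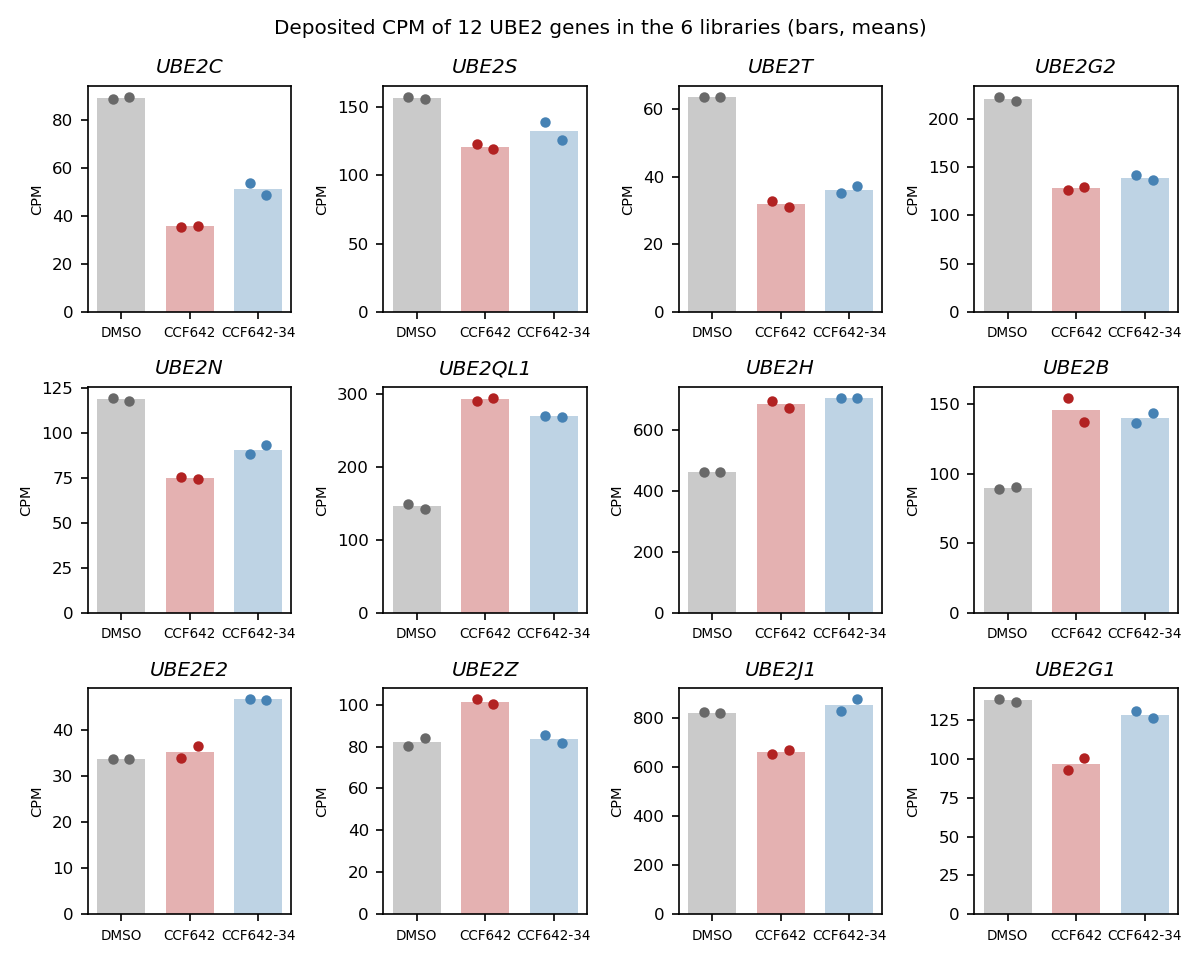
Deposited CPM of 12 UBE2 genes in each library, with a point per library and a bar for the mean of the 2 libraries of DMSO (grey), CCF642 (red) and CCF642-34 (blue). UBE2C lies lowest with CCF642 (35.6 and 36.0 CPM), and UBE2J1 lies below DMSO with CCF642 and slightly above it with CCF642-34.

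Genes that UBE2C, UBE2S and UBE2T work with were called in both directions. Of 17 APC/C subunits, activators and the inhibitor FBXO5, 7 rose and 7 fell with CCF642 (41.2% each way, against 31.8% and 31.3% of all listed genes) and 7 rose and 6 fell with CCF642-34 (41.2% and 35.3%, against 29.7% and 27.9%), and their median log2 fold changes were 0.024 and 0.035. CDC20, the activator of APC/C in early mitosis, was at 137 and 137 CPM with DMSO, 92.3 and 89.8 with CCF642 and 117 and 117 with CCF642-34. Its log2 fold change with CCF642 was −0.45 (adjusted p = 1.9e-10), and with CCF642-34 it was −0.13 (adjusted p = 0.0267), a call lost when any of the 4 libraries of that comparison was left out (−0.13 each time). FBXO5 fell by 0.43 with CCF642 and by 0.49 with CCF642-34. The largest change of the 17 with CCF642-34 was upward: ANAPC10 rose by 0.59 (limma adjusted p = 6.25e-05). With CCF642 ANAPC10 rose by 0.34, less than CDC20 and FBXO5 fell. Its call with CCF642 was lost with library size alone (0.22), with DESeq2 (0.38) and without DMSO replicate 1 (0.33) or CCF642 replicate 1 (0.20). Of the 3 UBE2T partners, FANCL and FANCI fell with both compounds and FANCD2 was not called. FANCL was at 19.8 and 19.2 CPM with DMSO, 11.4 and 9.65 with CCF642 and 11.7 and 13.1 with CCF642-34, which gave log2 fold changes of −0.71 and −0.53.

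Of the 6 E2 genes for Lys48-linked chains and ERAD, 3 fell and 0 rose with CCF642 by limma at the adjusted p, where 31.3% of all listed genes fell and 31.8% rose, and 1 fell and 1 rose with CCF642-34, where 27.9% fell and 29.7% rose. UBE2G2, which works with ERAD ligases, fell with both. UBE2G2 was at 223 and 219 CPM with DMSO, 127 and 129.6 with CCF642 and 142 and 137 with CCF642-34. The treated libraries were all well below DMSO. UBE2G2 fell by 0.65 with CCF642 (SE 0.048, adjusted p = 1.75e-16) and by 0.57 with CCF642-34 (adjusted p = 1.57e-14). The compounds differed by 0.07 for UBE2G2, which was not called (95% interval −0.02 to 0.17). UBE2G1, a related enzyme that extends Lys48 chains for cullin-RING ligases, was lowest in the CCF642 libraries. UBE2G1 was at 139 and 137 CPM with DMSO, 92.9 and 100.4 with CCF642 and 131 and 126 with CCF642-34. Its log2 fold change was −0.38 with CCF642 (adjusted p = 2.24e-08) and −0.01 with CCF642-34 (95% interval −0.12 to 0.09), and the compounds differed by 0.37 (95% interval 0.26 to 0.47, adjusted p = 2.62e-07).

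UBE2J1 was the only member called lower with one compound and higher with the other. UBE2J1 was at 822 and 818 CPM with DMSO, 649.8 and 667 with CCF642 and 827 and 877 with CCF642-34, and after TMM scaling at 779.8 and 777, 675 and 698, and 838 and 884. The groups did not overlap on either scale. Its log2 fold change was −0.18 with CCF642 (SE 0.037, adjusted p = 3.63e-05) and 0.14 with CCF642-34 (SE 0.037, adjusted p = 0.000816). With library size alone the second value was 0.055 and was not called (adjusted p = 0.196). The direct difference was 0.33 (95% interval 0.25 to 0.40, adjusted p = 9.95e-10). UBE2J2, its ER membrane relative, was at 67.0 and 66.4 CPM with DMSO, 58.4 and 58.9 with CCF642 and 66.3 and 71.0 with CCF642-34. It was lowest with CCF642 and was called against DMSO with neither compound (−0.05 and 0.13). UBE2J2 was 0.18 higher with CCF642-34 than with CCF642 (adjusted p = 0.0221), a call lost without CCF642 replicate 1 (0.17) or CCF642-34 replicate 2 (0.14). UBE2K and UBE2R2, which build Lys48 chains, were called in no comparison.

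Of 7 listed partners of the ERAD E2 enzymes, ligases and other components, 4 rose and 1 fell with CCF642 (57.1% higher, against 31.8% of all listed genes), and 5 rose and 0 fell with CCF642-34 by limma at the adjusted p (71.4% higher, against 29.7%). One of these, the ligase RNF139, had log2 fold changes of 0.23 and 0.16. Its call with CCF642 was lost with library size alone (0.10) and without DMSO replicate 1 (0.19). Its call with CCF642-34 was lost with library size alone (0.076), with DESeq2 or its size factors (0.16) and without DMSO replicate 1 (0.12), DMSO replicate 2 (0.21), CCF642-34 replicate 1 (0.17) or CCF642-34 replicate 2 (0.16). DERL2, a membrane component of the export channel, was at 67.1 and 67.3 CPM with DMSO, 105 and 104 with CCF642 and 118 and 117 with CCF642-34, with log2 fold changes of 0.76 and 0.89. The ligase SYVN1 (HRD1) rose by 0.71 with CCF642 and 0.46 with CCF642-34, and its adaptor SEL1L by 0.56 and 0.45. UBE2G2 and UBE2J1, which serve the same ligases, were thus lower with CCF642 in libraries where SYVN1 and SEL1L were higher. A link between these changes was not tested.

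UBE2N builds Lys63-linked chains, which act in signalling and DNA repair, together with the inactive E2 variants UBE2V1 or UBE2V2. UBE2N was at 119.5 and 118 CPM with DMSO, 75.3 and 74.5 with CCF642 and 88.3 and 93.1 with CCF642-34. The 3 groups did not overlap, with CCF642 lowest. UBE2N fell by 0.52 with CCF642 (SE 0.055, adjusted p = 1.3e-11) and by 0.30 with CCF642-34 (adjusted p = 9.13e-06), and was 0.23 higher with CCF642-34 than with CCF642 (95% interval 0.12 to 0.34, adjusted p = 0.000974). UBE2V1 and UBE2V2 were called in no comparison. UBE2V2 had log2 fold changes of 0.04 and 0.10, and UBE2V1, with 80 to 113 reads in a library, of 0.05 and −0.08 with wide intervals.

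The broadly acting E2 enzymes of the D, E, L and W families were called in both directions. Of these 9 genes, 3 rose and 4 fell with CCF642 (33.3% and 44.4%, against 31.8% and 31.3% of all listed genes), and 2 rose and 1 fell with CCF642-34 (22.2% and 11.1%, against 29.7% and 27.9%). The nearly identical UBE2D enzymes serve many ligases, and their genes went apart: with CCF642 UBE2D3 rose by 0.35, while the log2 fold changes were −0.22 for UBE2D2, −0.23 for UBE2D1 and −0.51 for UBE2D4. UBE2D3 was at 339 and 346 CPM with DMSO, 406 and 387 with CCF642 and 398 and 392 with CCF642-34, so that both treated groups were above DMSO. UBE2D2 was at 301 and 305 CPM with DMSO, 239.6 and 233 with CCF642 and 286 and 281 with CCF642-34. UBE2D2 was lowest with CCF642, and its value with CCF642-34 against DMSO was not called (95% interval −0.09 to 0.08). UBE2D4 was low, 8.83 and 8.04 CPM with DMSO, 5.59 and 4.65 with CCF642 and 7.41 and 6.84 with CCF642-34. UBE2D1 was at 22.7 and 25.2 CPM with DMSO, 18.7 and 18.3 with CCF642 and 23.2 and 24.1 with CCF642-34, and its call with CCF642 was lost without DMSO replicate 2 (−0.15, adjusted p = 0.308) or CCF642 replicate 2 (−0.21, adjusted p = 0.0801).

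UBE2E2 and UBE2E3, close relatives of each other, went in opposite directions. UBE2E2 was at 33.8 and 33.7 CPM with DMSO, 33.8 and 36.5 with CCF642 and 46.8 and 46.6 with CCF642-34. Only the CCF642-34 libraries stood clearly above DMSO before scaling. UBE2E2 rose by 0.54 with CCF642-34 (SE 0.076, adjusted p = 2.94e-08). With CCF642 its value was 0.19 (adjusted p = 0.0289), a call lost with library size alone (0.057), without DMSO replicate 1 (0.19) or 2 (0.19) and without CCF642 replicate 2 (0.13). UBE2E2 was 0.36 higher with CCF642-34 than with CCF642 (95% interval 0.20 to 0.51, adjusted p = 0.000215). UBE2E3 was at 125 and 118 CPM with DMSO, 78.9 and 79.9 with CCF642 and 97.1 and 104 with CCF642-34, with all treated libraries below DMSO. It fell by 0.48 with CCF642 (adjusted p = 1.76e-10). With CCF642-34 its value was −0.19 (adjusted p = 0.00343), a call lost without DMSO replicate 1 (−0.15) or CCF642-34 replicate 1 (−0.14). UBE2E1 was called only between the compounds, 0.13 higher with CCF642-34, and that call was lost without CCF642 replicate 1 (0.12) or CCF642-34 replicate 2 (0.11). UBE2L3, which serves ligases of the HECT and RBR types, was called nowhere, and UBE2W, which modifies protein N-termini, rose by 0.27 with CCF642, a call lost with library size alone (0.14) and without DMSO replicate 2 (0.24).

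UBE2A and UBE2B are the human forms of yeast RAD6 and act on histones and on the clamp PCNA at stalled replication forks. They are closely related proteins, and UBE2B was called where UBE2A was not, a difference between genes that was not tested. UBE2B was at 89.3 and 90.5 CPM with DMSO, 155 and 137 with CCF642 and 136 and 143 with CCF642-34. All treated libraries were above DMSO, and the 2 compounds overlapped. UBE2B rose by 0.82 with CCF642 (SE 0.054, adjusted p = 1.92e-18) and by 0.72 with CCF642-34 (adjusted p = 3.42e-16). The difference between the compounds was −0.10 (95% interval −0.21 to 0.00), not called with all libraries but called without CCF642 replicate 2 (−0.18, adjusted p = 0.00925). UBE2A was at 104 and 108 CPM with DMSO, 101 and 95.8 with CCF642 and 104 and 112 with CCF642-34, with log2 fold changes of 0.03 and 0.11.

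**Figure D3:**
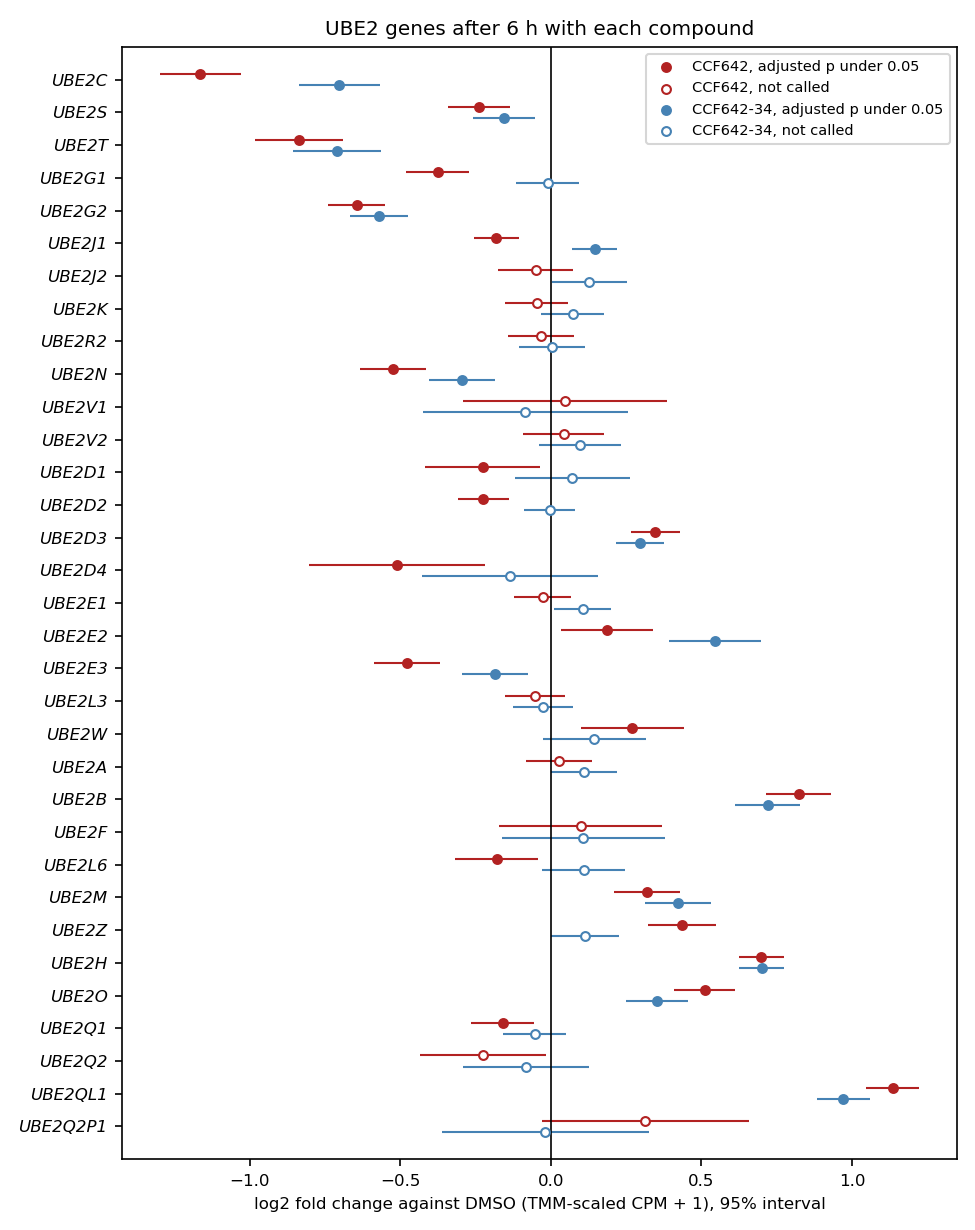
Log2 fold change against DMSO of 33 UBE2 genes for CCF642 (red) and CCF642-34 (blue), with 95% intervals from limma and filled points for an adjusted p under 0.05. UBE2C, UBE2T and UBE2G2 lie far left and UBE2QL1, UBE2B and UBE2H far right for both compounds, and the UBE2J1 points lie on opposite sides of 0.

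Of the largest increases, 3 were in E2 genes outside those families. UBE2QL1, an E2-like protein, was at 149 and 143 CPM with DMSO, 290.4 and 294 with CCF642 and 269.8 and 268 with CCF642-34. All treated libraries were far above DMSO, with CCF642 highest. UBE2QL1 rose by 1.13 with CCF642 (SE 0.044, adjusted p = 2.99e-27) and by 0.97 with CCF642-34 (adjusted p = 2.74e-24). It was lower with CCF642-34 than with CCF642, with a log2 fold change of −0.16 (95% interval −0.25 to −0.08, adjusted p = 0.00297). UBE2H, the E2 of the CTLH ligase complex, was at 463 and 462 CPM with DMSO, 696 and 674 with CCF642 and 707 and 707 with CCF642-34. Its increase was 0.70 with either compound (SE 0.037), and the difference between them was 0.00 with a 95% interval of −0.07 to 0.08. UBE2O, a large enzyme that acts as E2 and E3 in one, was at 105 and 108 CPM with DMSO, 137 and 139 with CCF642 and 129 and 127 with CCF642-34. UBE2O rose by 0.51 and 0.35 with CCF642 and CCF642-34 (adjusted p = 2.41e-12 and 5.71e-08). UBE2O was lower with CCF642-34 than with CCF642 (−0.16), a call lost with library size alone (−0.11) or without CCF642-34 replicate 2 (−0.14). UBE2Q1 had a log2 fold change of −0.16 with CCF642, a call lost without DMSO replicate 1 (−0.13, adjusted p = 0.117), and UBE2Q2 and the pseudogene UBE2Q2P1 were called nowhere.

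Among E2 genes for ubiquitin-like modifiers, UBE2M and UBE2Z rose and UBE2L6 fell with CCF642, whereas UBE2M rose with CCF642-34. UBE2M, which carries NEDD8 to cullins, was at 108 and 111 CPM with DMSO, 128 and 122 with CCF642 and 147 and 129 with CCF642-34. All treated libraries were above DMSO. UBE2M rose by 0.32 with CCF642 (adjusted p = 1.58e-06) and 0.42 with CCF642-34 (adjusted p = 5.43e-09). The other NEDD8 enzyme, UBE2F, was called nowhere, with 193 to 340 reads in a library. UBE2Z, which is charged by the E1 enzyme UBA6, was at 80.5 and 84.0 CPM with DMSO, 103 and 100.2 with CCF642 and 85.5 and 81.8 with CCF642-34. As deposited, the CCF642 libraries were above DMSO and the CCF642-34 libraries overlapped it. UBE2Z rose by 0.43 with CCF642 (SE 0.056, adjusted p = 3.79e-09) and had a value of 0.11 with CCF642-34 that was not called (95% interval 0.00 to 0.23). It was lower with CCF642-34 than with CCF642, with a log2 fold change of −0.32 (95% interval −0.43 to −0.21, adjusted p = 1.21e-05). UBE2L6, the E2 of ISG15, was at 55.1 and 54.1 CPM with DMSO, 42.8 and 44.8 with CCF642 and 52.9 and 58.1 with CCF642-34. Its value was −0.18 with CCF642 (adjusted p = 0.0204), a call lost without DMSO replicate 1 (−0.17) or 2 (−0.19) or CCF642 replicate 1 (−0.14), and it was 0.29 higher with CCF642-34 than with CCF642 (adjusted p = 0.00083).

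Of 9 E1 enzyme genes, 3 rose and 3 fell with CCF642, 33.3% each way and so near the 31.8% and 31.3% of all listed genes, and 1 rose and 2 fell with CCF642-34 (11.1% and 22.2%, against 29.7% and 27.9%). UBA6, the E1 for UBE2Z, was at 114 and 107 CPM with DMSO, 129 and 135 with CCF642 and 103 and 116 with CCF642-34. Like UBE2Z, UBA6 rose with CCF642 (0.39) and was not called with CCF642-34 (0.07). NAE1, a subunit of the E1 for NEDD8, went the other way from UBE2M: it fell by 0.48 with CCF642 and by 0.36 with CCF642-34. Of 15 listed genes of ubiquitin-like modifiers and their ligases, 5 rose and 5 fell with CCF642, again 33.3% each way and near all listed genes, and 6 rose and 6 fell with CCF642-34 (40% each way, against 29.7% and 27.9%). UFM1, a modifier known from the ER, rose by 0.87 and 0.76, the SUMO ligase RANBP2 by 0.70 and 0.29, and SUMO3 fell by 0.51 and 0.32. ISG15, at 4.18 and 3.60 CPM with DMSO and 7.20 and 5.93 with CCF642, rose by 0.74 with CCF642. With CCF642-34 the value of ISG15, 0.25, was not called. Of 8 E2 genes with other names, 3 rose and 0 fell with CCF642 (37.5% higher, near the 31.8% of all listed genes) and 4 rose and 0 fell with CCF642-34 (50% higher, against 29.7%) in limma at the adjusted p. AKTIP, an inactive E2 variant, rose by 0.55 and 0.34. BIRC6, a giant E2 and inhibitor of apoptosis, was at 163 and 164 CPM with DMSO, 199 and 208 with CCF642 and 159 and 169 with CCF642-34, and rose by 0.44 with CCF642 alone of the comparisons with DMSO.

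When the compounds were compared directly at the same dose and time, UBE2C, UBE2D4, UBE2G1, UBE2E2 and UBE2J1 were higher after CCF642-34 by the largest amounts, and UBE2Z, UBE2QL1 and UBE2O were lower. This was the single pair of compounds compared, with p values adjusted over all listed genes. Of the 34 UBE2 genes 12 were higher and 3 lower with CCF642-34, which is 35.3% and 8.82%, where 15.9% of all listed genes were higher and 17.4% lower (33.4% in either direction). Their median difference was 0.092 on the log2 scale, against 0.0093 for all listed genes. No member differed by at least 2-fold with an unadjusted p under 0.05, in limma, edgeR or DESeq2, where 0.308% of all listed genes met this, 0.00905% upward and 0.299% downward. The 3 comparisons share libraries, and among the 12 higher members 9 were called lower with CCF642 against DMSO, UBE2E2 was called higher with both compounds, and UBE2E1 and UBE2J2 were called with neither. UBE2D4 was 0.38 higher (95% interval 0.08 to 0.67, adjusted p = 0.0408). That call was lost in a fit of only these 2 groups, in DESeq2 and without either DMSO replicate (0.38), CCF642 replicate 2 (0.27), CCF642-34 replicate 1 (0.32) or CCF642-34 replicate 2 (0.43). UBE2E3 was 0.29 higher (95% interval 0.18 to 0.40), UBE2D2 0.22 higher (95% interval 0.14 to 0.30) and UBE2D1 0.30 higher (95% interval 0.11 to 0.49), and for UBE2D1 the call was lost without CCF642-34 replicate 2 (0.27).

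**Figure D4:**
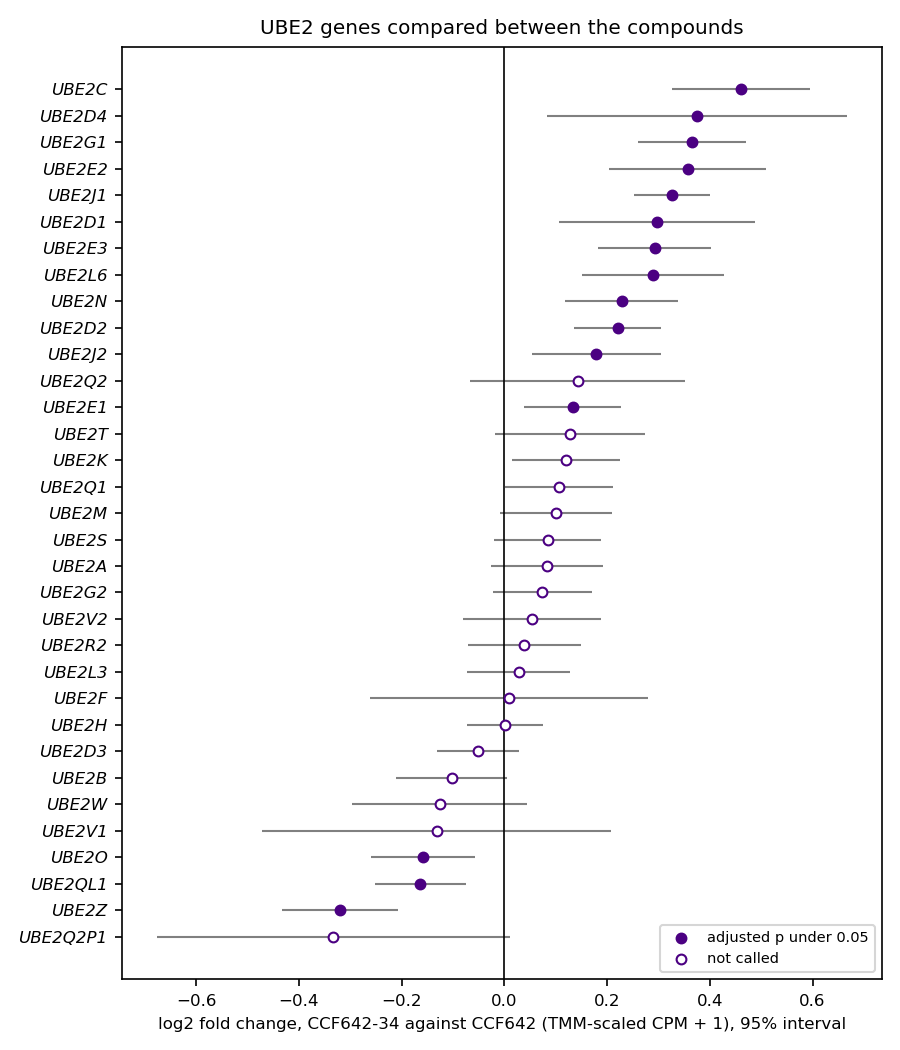
Log2 fold change of CCF642-34 against CCF642 for 33 UBE2 genes in order of size, with 95% intervals from limma and filled points for an adjusted p under 0.05. The 12 filled points on the right run from UBE2C at 0.46 to UBE2E1 at 0.13, and those on the left are UBE2O, UBE2QL1 and UBE2Z.

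The other 19 members were not called between the compounds, which does not show that the compounds act alike on them. Among them 7 had been called with both compounds against DMSO (UBE2B, UBE2D3, UBE2G2, UBE2H, UBE2M, UBE2S and UBE2T), and their differences lay between −0.10 and 0.13, with intervals that together spanned −0.21 to 0.27. A further 9 members were called in no comparison (UBE2A, UBE2F, UBE2K, UBE2L3, UBE2Q2, UBE2Q2P1, UBE2R2, UBE2V1 and UBE2V2). Their log2 fold changes ran from −0.23 to 0.31 with CCF642 and from −0.085 to 0.11 with CCF642-34, and their differences between the compounds from −0.33 to 0.14, with intervals out to −0.68 for the pseudogene.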

How the data were processed

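MM1.S cells were treated for 6 h, with 2 libraries in each of 3 groups. The authors deposited CPM for 11048 genes per library, a unit read here from the values, and the highest value of every gene was at least 1.505 CPM. The submitters' processing notes name STAR, edgeR 3.24.3, limma 3.38.3 and hg19, and the annotation and counting tool are not given in the sources used here. A table of the whole series held the same values and was not used. All values (100%) were whole multiples of 1 read within 0.01, so reads were recovered for depth and for edgeR and DESeq2.

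CPM were scaled by TMM (edgeR 4.0.16), increased by 1, converted to log2 and fitted with limma 3.58.1 (R 4.3.3) with a variance trend. All 3 groups were fitted together, with 3 residual degrees of freedom and a prior of 42.92. The variance used for each gene thus came mostly from the trend over all listed genes. Tests were two-sided and adjusted by Benjamini-Hochberg over all listed genes. No gene was filtered out. The fit was tested on simulated data. Alternatives were DESeq2 1.42.0, edgeR's quasi-likelihood test, other scalings, pseudocounts of 0.1 and 2, a mean CPM of at least 5, fits of 2 groups, a replicate block and fits without each library.

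Values in each library are given for UBE2C, UBE2S and UBE2T, for up to 5 increases and 5 decreases per comparison among the other members, and for members that moved in opposite directions with the compounds. Some values in each library beyond this rule (UBE2D2, UBE2D3 and UBE2A) were added after the values were seen. Other lists have up to 4 genes named by size of change, and COL1A1, KRT8, CD3E and FANCD2 are named outside the rule. That both libraries of a group lay above or below DMSO was judged on TMM-scaled CPM for the closing section, a scale chosen for this after the values were seen. The members and lists were chosen with earlier results of these data known. A member that the counts include is not reported here by name or drawn.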

Additional observations from a re-analysis of the deposited data

Results flagged for a closer look

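UBE2J1, UBE2J2 and UBE2L6 had both CCF642 libraries below and both CCF642-34 libraries above the DMSO libraries after TMM scaling. The share of all listed genes with such positions was not computed, so whether this is unusual is not known. The limma test of the direct difference gave 0.33 on the log2 scale for UBE2J1 (adjusted p = 9.95e-10), 0.18 for UBE2J2 (adjusted p = 0.0221) and 0.29 for UBE2L6 (adjusted p = 0.00083). The genes were selected by the position of these libraries together with an adjusted p under 0.05 for the direct difference. These p values were thus part of the selection and are no separate support. UBE2J1 was called against DMSO in both directions, UBE2L6 was called with CCF642 only (−0.18), and UBE2J2 with neither. As deposited, before scaling, UBE2J2 with CCF642-34 (66.3 and 71.0 CPM) and UBE2L6 with CCF642-34 (52.9 and 58.1 CPM) overlapped DMSO (67.0 and 66.4, and 55.1 and 54.1 CPM). No test for outlying libraries applies to groups of 2.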

How the results depend on the processing

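The numbers of UBE2 genes called kept within 1.5 times of their values under the alternatives run. edgeR gave 10 higher and 13 lower with CCF642, 9 and 6 with CCF642-34 and 12 and 3 between the compounds, and DESeq2 gave 9 and 11, 8 and 6, and 9 and 3. With library size alone the last comparison had 17 higher and 2 lower, and the share of called members that were higher went from 43.5% to 26.9% with CCF642 and from 57.1% to 43.8% with CCF642-34. Leaving out 1 library at a time gave 8 to 10 higher and 11 to 13 lower with CCF642, 8 to 12 and 4 to 6 with CCF642-34, and 10 to 12 and 2 to 4 between the compounds. An arm left with 1 library was assumed to vary like the other groups. DESeq2 lost the calls of UBE2D1, UBE2E2 and UBE2L6 with CCF642 and of UBE2D4, UBE2E1 and UBE2J2 between the compounds, with no change of direction. UBE2H between the compounds turned sign around 0, at −0.00725 with DESeq2 size factors, −0.00729 with DESeq2, and −0.0181 to 0.0202 over fits without 1 library. UBE2M, UBE2S and UBE2G2 were called between the compounds with library size alone (0.14, 0.13 and 0.12), and UBE2M and UBE2S without CCF642-34 replicate 2 (0.20 and 0.16). With the replicate block the counts were 10 and 13, 8 and 6, and 12 and 3, and it changed no call of a UBE2 gene that had been made. The replicate numbers share no stated source, and the deviations of same-numbered libraries correlated by −0.027, −0.058 and 0.07 across 10311 genes. With 2 libraries per group, these correlations cannot decide whether same-numbered libraries share a source. Replicates differed by more than counting noise. Their mean squared difference was 2.29, 4.65 and 4.04 times the variance from counting in DMSO, CCF642 and CCF642-34. The lowest members (UBE2Q2P1, UBE2V1 and UBE2D4, from 71, 80 and 105 reads) are limited by depth.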
